A study of Homo sapiens with 6 samples.

Results

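The chromosome band 9p21 holds the tumor suppressor gene CDKN2A together with CDKN2B, MTAP, DMRTA1, KLHL9 and MLLT3, and RNA of these 6 genes was followed in MDA-MB-231 cells, of 17064 genes in the deposited table. The genes were chosen by their place around CDKN2A and by the read counts already seen for them in these 6 libraries, so their levels are a description, and the values that a fit over all genes gave for MLLT3 and MTAP are no independent test of them. Values were found for 4 of the 6 (CDKN2A, MTAP, KLHL9 and MLLT3), and CDKN2B and DMRTA1 were not analysed here. MDA-MB-231 is a human breast cancer line of mesenchymal-like character, grown from a metastatic site and labelled as epithelial mammary gland cells.

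All cells were transduced with lentivirus packaged in HEK293T cells, selected with puromycin or blasticidin and used as pools, without clone picking. The 2 vector control libraries (vector 1 and vector 2) came from separate transductions of the empty plasmid. CDC42BPA (the gene of MRCKα) was knocked out by CRISPR in 1 library (MRCKα KO), CDC42BPB (the gene of MRCKβ) in 1 library (MRCKβ KO), and both kinase genes in 2 libraries made with different guide sets (DKO 1 and DKO 2). The guide used for each library is not given by the labels.

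CDKN2A encodes 2 unrelated proteins from separate first exons, p16INK4A, which blocks CDK4 and CDK6 and so keeps RB active, and p14ARF, which restrains the ubiquitin ligase MDM2. CDKN2B next to it encodes the related CDK inhibitor p15INK4B, and MTAP encodes the phosphorylase that recycles methylthioadenosine, a by-product of polyamine synthesis, into methionine. Deletions of this stretch are common in tumors, often take CDKN2A and MTAP together, and are known in MDA-MB-231. RNA reads alone cannot tell a lost gene from a silent one, and DNA was not measured.

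Depth was nearly even, with totals of 10349898 to 10657857 expected counts per library, the highest 2.98% above the lowest. An expected count is the estimated number of reads assigned to a gene, and FPKM is that number scaled to transcript length and library size. The vimentin gene VIM, a marker of mesenchymal-like cells, was at 1532.08 to 2052.46 FPKM and the epithelial cadherin gene CDH1 at 0.25 to 0.64 FPKM in all 6 libraries, and 6 mesenchymal markers summed to 2450 to 3140 FPKM against 5.21 to 7.91 for 6 luminal ones. SPARC, also on the mesenchymal list, was low at 0.16 to 1.22 FPKM. CDC42BPA had 2931 counts in MRCKα KO and 2888 and 2706 in DKO, all between the 2354 and 3851 of the vector libraries. CDC42BPB had 1806 counts in MRCKβ KO and 1610 and 1613 in DKO, all below the 1982 and 2145 of vector, as were the 1836 of MRCKα KO, in which this gene was not targeted. The reads of a gene edited by small insertions or deletions can remain, so these counts are a weak check of the knockout.

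The start regions of the genes show what the CDKN2A, MTAP and MLLT3 results concern, 1 gene without reads in 5 libraries, 1 read at trace level and 1 expressed. Each run below holds the 250 bases before the first transcribed base, from RefSeq on GRCh38.p14, with every CG pair in capitals. CG pairs are where DNA methylation, which was not measured, can occur. CDKN2A has separate starts for the ARF and the p16 transcript.
CDKN2A, ARF start, minus strand, chr9:21995325-21995574: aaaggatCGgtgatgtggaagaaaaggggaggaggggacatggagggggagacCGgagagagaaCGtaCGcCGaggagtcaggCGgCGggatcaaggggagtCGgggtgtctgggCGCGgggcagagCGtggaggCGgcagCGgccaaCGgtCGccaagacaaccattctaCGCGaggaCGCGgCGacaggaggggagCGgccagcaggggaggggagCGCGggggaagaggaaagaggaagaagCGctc
CDKN2A, p16 start, minus strand, chr9:21974858-21975107: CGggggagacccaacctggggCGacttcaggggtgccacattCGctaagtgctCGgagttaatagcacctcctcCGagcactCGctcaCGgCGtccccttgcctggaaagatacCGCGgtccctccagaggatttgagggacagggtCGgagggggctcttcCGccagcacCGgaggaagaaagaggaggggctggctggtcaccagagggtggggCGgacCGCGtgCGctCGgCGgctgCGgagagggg
MTAP, plus strand, chr9:21802386-21802635: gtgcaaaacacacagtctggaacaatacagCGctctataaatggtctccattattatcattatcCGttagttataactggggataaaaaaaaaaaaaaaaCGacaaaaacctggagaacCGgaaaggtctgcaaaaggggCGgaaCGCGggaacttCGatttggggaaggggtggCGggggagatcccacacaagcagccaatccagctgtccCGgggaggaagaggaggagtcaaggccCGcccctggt
MLLT3, minus strand, chr9:20622500-20622749: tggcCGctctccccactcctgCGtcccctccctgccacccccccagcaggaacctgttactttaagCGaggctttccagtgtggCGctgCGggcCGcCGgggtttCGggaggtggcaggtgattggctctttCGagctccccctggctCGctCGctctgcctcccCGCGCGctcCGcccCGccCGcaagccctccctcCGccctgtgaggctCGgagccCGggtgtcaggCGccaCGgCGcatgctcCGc
The ARF run holds 24 CG pairs, the p16 run 20, the MTAP run 11 and the MLLT3 run 24, where the motif is C followed by G, which reads alike on both strands. At least as many were found in 23.7%, 32.4%, 50.3% and 23.7% of the 35116 promoters of the same length, whose median was 11. The runs of CDKN2B, DMRTA1 and KLHL9, not shown, hold 18, 13 and 16 CG pairs. The expressed MLLT3 and the ARF start of CDKN2A thus have the same number of CG pairs.

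Reads of CDKN2A (gene ID 1029, chr9:21967753-21995301, GENCODE 29 on GRCh38, minus strand) came from 1 library. The expected count of CDKN2A was 19 in MRCKα KO, while both vector libraries, both DKO libraries and MRCKβ KO had 0 each. MRCKα KO was thus the high library and the 5 others had no read. For a count of 0 a limit of 3 counts was set, which is not the 95% Poisson interval used for other counts. That interval was 11.4 to 29.7 for the 19 reads. Set against this limit of 3 counts in each vector library, MRCKα KO was 6.42-fold higher. The figure takes the 19 reads as counted, leaves out their own interval, and would be smaller with a higher limit. Over all 5 other libraries it was 6.43. Poisson intervals cover counting error only, and MRCKα KO has no replicate. In bulk RNA, fewer cells that express a gene and less RNA of it per cell cannot be told apart. In FPKM, CDKN2A was at 1.71 in MRCKα KO, below the 2.37 to 2.94 FPKM of MLLT3 over the 6 libraries.

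**Figure D1:**
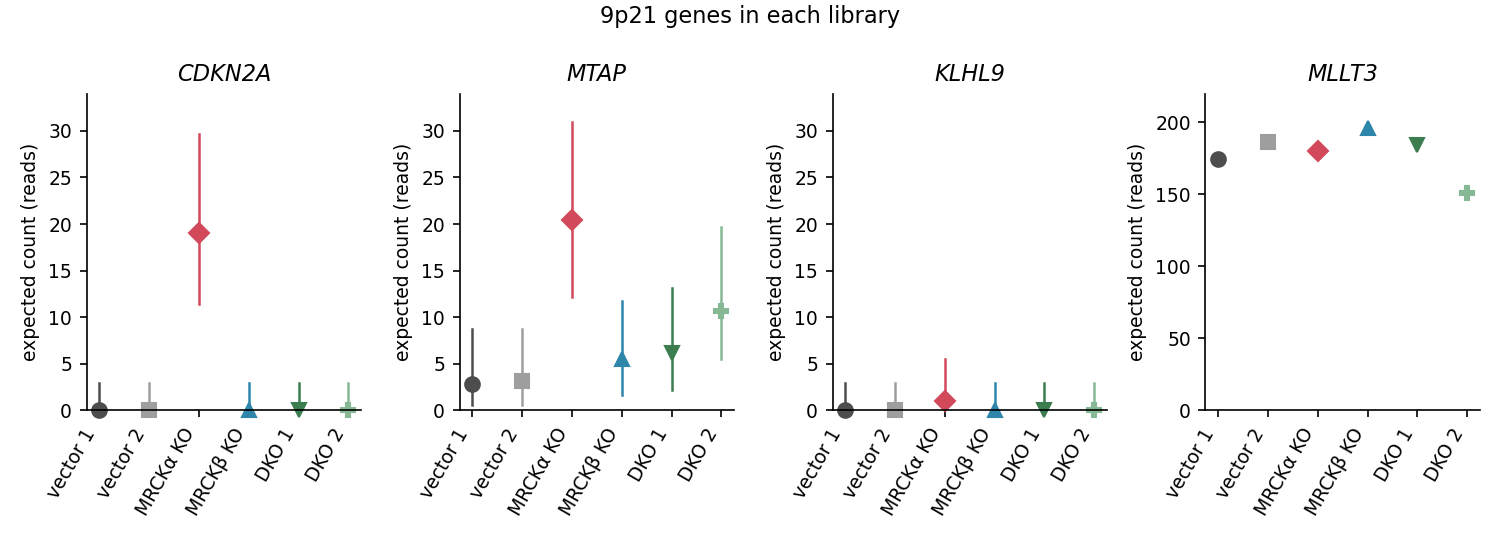
Expected counts (reads) of the 4 genes with values in each of the 6 libraries, 1 panel per gene and 1 point per library. Lines show the 95% Poisson interval of CDKN2A, MTAP and KLHL9, or a set limit of 3 counts where the count is 0. CDKN2A sits at 19 in MRCKα KO and at 0 in the 5 others, MTAP is highest at 20.38 in the same library, and MLLT3 spans 151.16 to 196.23 on its own axis.

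MTAP (gene ID 4507, chr9:21802543-21937651, plus strand), whose annotated end lies 30.1 kb from CDKN2A, was read in every library, at trace level. Vector 1 had 2.89 expected counts of MTAP and vector 2 had 3.20, MRCKα KO had 20.38 and MRCKβ KO 5.47, and the DKO libraries had 6.13 (DKO 1) and 10.72 (DKO 2). The order ran from the vector libraries over MRCKβ KO and DKO to MRCKα KO, and each library's Poisson interval overlapped that of the next in this order. MRCKα KO (12.2 to 30.9) lay above both vector intervals (0.619 to 8.77 each) and MRCKβ KO (1.62 to 11.7), and overlapped DKO 2 (5.49 to 19.7) and DKO 1 (2.2 to 13.1). The FPKM values were 0.05 and 0.06 for vector, 0.40 for MRCKα KO, 0.10 for MRCKβ KO, and 0.12 and 0.20 for DKO. All 6 lie below the lowest MLLT3 level of 2.37 FPKM.

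Between groups, MTAP in MRCKα KO was 6.75-fold above vector on rounded counts per total (20 reads against 6, 95% exact conditional interval 2.62 to 20.6) and 3.62-fold above the 5 other libraries together (1.94 to 6.67). For MRCKβ KO the fold was 1.65 (0.397 to 6.48) and for DKO 2.84 (1.07 to 8.79), the latter from 17 reads against 6, and both DKO libraries were above both vector libraries. These intervals hold no spread between cultures, and they describe the counts that had already chosen the gene. MTAP fell under the filter on low counts of the fit across all genes, and without that filter edgeR's quasi-likelihood test gave a log2 fold change of 1.44 (SE 0.82) for MTAP in DKO over vector (edgeR, Benjamini-Hochberg adjusted p = 0.999). Part of the MTAP sequence is shared with other loci, judged for each gene on its longest GENCODE 29 transcript matched to RefSeq. Of the 50-base words of this MTAP transcript, 11.3% (549 of 4860) also occur in 1 or more of 38 other annotated genes. Among them are the overlapping transcript AL359922.1 (401 words) and the pseudogene MTAPP2 (47 words). For CDKN2A the shared part was 2.65%, all with CDKN2B. How the reads were split between such loci was not tested, and whether the library kit kept strand is not given in the sources used here, so reads of antisense transcripts cannot be told apart.

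The study's fold rule counts a gene as changed when its FPKM differs at least 2-fold from the vector mean, after leaving out genes whose replicates differ more than 2-fold. Poorly expressed genes were also set aside in the study, by a limit not given in the sources used here. That step was not applied here. MTAP is a low gene, yet the study's own list of genes most raised in MRCKα KO holds it, at a log2 fold change of 2.86. By this rule MTAP was the 1 member higher in MRCKα KO, with a log2 ratio of 2.86, where 1.94% of all genes that could be judged were called higher, and with a pseudocount of 1 on FPKM the ratio was 0.41 and no longer past the rule. No member was called in MRCKβ KO, where MTAP had 0.86 and where 1.68% of all genes were called higher. The study applied the rule to DKO too, but here DKO was added after seeing the data. In DKO, MTAP was again the 1 member called, with 1.54, against 1.02% of all genes. This call was lost with a pseudocount of 0.1 (0.75) or 1 (0.14). The 3 ratios share the vector libraries, and an FPKM of 0.05 given to 2 decimals moves in coarse steps. CDKN2A cannot be judged by the rule, since it is listed at 0 in vector. MLLT3 had log2 ratios of -0.01, 0.11 and -0.05.

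KLHL9 (gene ID 55958, chr9:21329671-21335380, minus strand), which encodes a CUL3 adaptor protein that directs AURKB off mitotic chromosomes, gave 1 read in all. The read was in MRCKα KO (FPKM 0.02), and the expected count was 0 in each of the 5 other libraries. A single read does not separate that library from the limit of 3 counts set for a count of 0. The 50-base words of its longest matched transcript are nearly its own, with 0.0883% shared, all with KLHL13. KLHL13, the closest paralog of KLHL9, was itself near the floor at 3 to 6 counts per library.

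MLLT3 (gene ID 4300, chr9:20341665-20622543, minus strand), also called AF9, encodes a reader of acylated histones in the super elongation complex, and it was the most read of the 4 genes. Vector 1 and vector 2 had 174.41 and 186.33 expected counts of MLLT3, the single knockouts 180.01 (MRCKα KO) and 196.23 (MRCKβ KO), and DKO 1 and DKO 2 had 184.53 and 151.16. DKO 2 was the lowest and the other 5 lay within 174.41 to 196.23, with DKO 1 between the vector libraries. In FPKM, vector was at 2.73 ± 0.29 and DKO at 2.63 ± 0.368 (SD, n = 2 each). The log2 fold change of DKO over vector was -0.12 (SE 0.20), not past the threshold in edgeR's quasi-likelihood test (adjusted p = 1), and without DKO 2 it was 0.03. No word of 50 bases from the longest matched MLLT3 transcript occurred in another gene.

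The genes whose profile over the 6 libraries was most like that of MLLT3 were CDC40, a splicing factor gene, ZWILCH, a kinetochore gene, and LPCAT1, a gene of phospholipid remodelling. Their Pearson correlations of log2 TMM-scaled CPM (counts per library size) with MLLT3 were 0.991, 0.989 and 0.987 over 6 libraries, among 9996 genes with a mean of at least 100 counts. A correlation over 0.9 was reached by 53 of these genes (0.53%). The points share libraries and depth, and the values are given as a description only.

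The neighbourhood of CDKN2A was examined within 5 Mb on either side, where 21 of 43 annotated protein-coding genes and 1 long non-coding gene had values. Of these 22 genes, 14 had at least 10 counts in every library (63.6%, against 71.9% of all genes), and 2, SAXO1 and KLHL9, had at most 3 in every library. Between HACD4 and TUSC1, a stretch of 4.64 Mb, 24 protein-coding genes are annotated and 3 had values, namely KLHL9, MTAP and CDKN2A. This stretch includes the type I interferon cluster, of which none of 16 listed genes had values, and those were not analysed here. Counted outward from CDKN2A, the run of genes with at most 3 counts in every library had a length of 0, since CDKN2A itself had 19 in MRCKα KO. Without MRCKα KO the run was 1 gene, CDKN2A itself, bordered by MTAP on one side and by TUSC1, the next gene with values, on the other.

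On the side of the short arm's tip, well expressed and barely read genes alternated. The ribosomal protein gene RPS6 was at 8062 to 9340 counts, HAUS6 (mitotic spindle) at 838 to 979, PLIN2 (lipid droplets) at 615 to 825, RRAGA (amino acid sensing by mTORC1) at 492 to 736, ADAMTSL1 (a matrix protein) at 354 to 523 and DENND4C (a Rab activator) at 326.47 to 404.59. ACER2, an alkaline ceramidase gene, was at 29 to 49.12, and CNTLN, SLC24A2 and SAXO1 were at 1.10 to 8.53, 0 to 6 and 0 to 2. All of these lie 2.18 to 4.46 Mb from CDKN2A, so barely read genes also occurred away from it. MLLT3, 1.35 Mb away, was followed by FOCAD, a focadhesin gene 0.97 Mb away, at 20.17 to 38.00 counts (0.31 to 0.58 FPKM), and by HACD4, a fatty acid elongation gene 0.94 Mb away, at 6.52 to 16.39 counts. Counts therefore dropped between MLLT3 and FOCAD, which are neighbours among the genes with values, and were at or below 38.00 in every library from there to CDKN2A. No library stood apart over FOCAD and HACD4, where vector 1 was the highest for FOCAD (38.00) and the lowest for HACD4 (6.52). MRCKα KO was the highest for HACD4 (16.39), close to vector 2 (14.33).

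Toward the centromere no gene with values lay within 3.68 Mb, where TUSC1, named as a candidate tumor suppressor, was at 107 to 149 counts. Beyond it, a long non-coding gene (LOC100506422) was at 10.02 to 27.97, CAAP1 (an apoptosis inhibitor) at 269 to 396, PLAA (ubiquitin and phospholipase signalling) at 582.26 to 777.31, IFT74 (transport in cilia) at 255.34 to 325.73 and LRRC19 at 4.19 to 8.09. The expressed genes on both sides of the stretch thus bracket CDKN2A, MTAP and KLHL9, whose highest counts in any library were 19, 20.38 and 1.

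**Figure D2:**
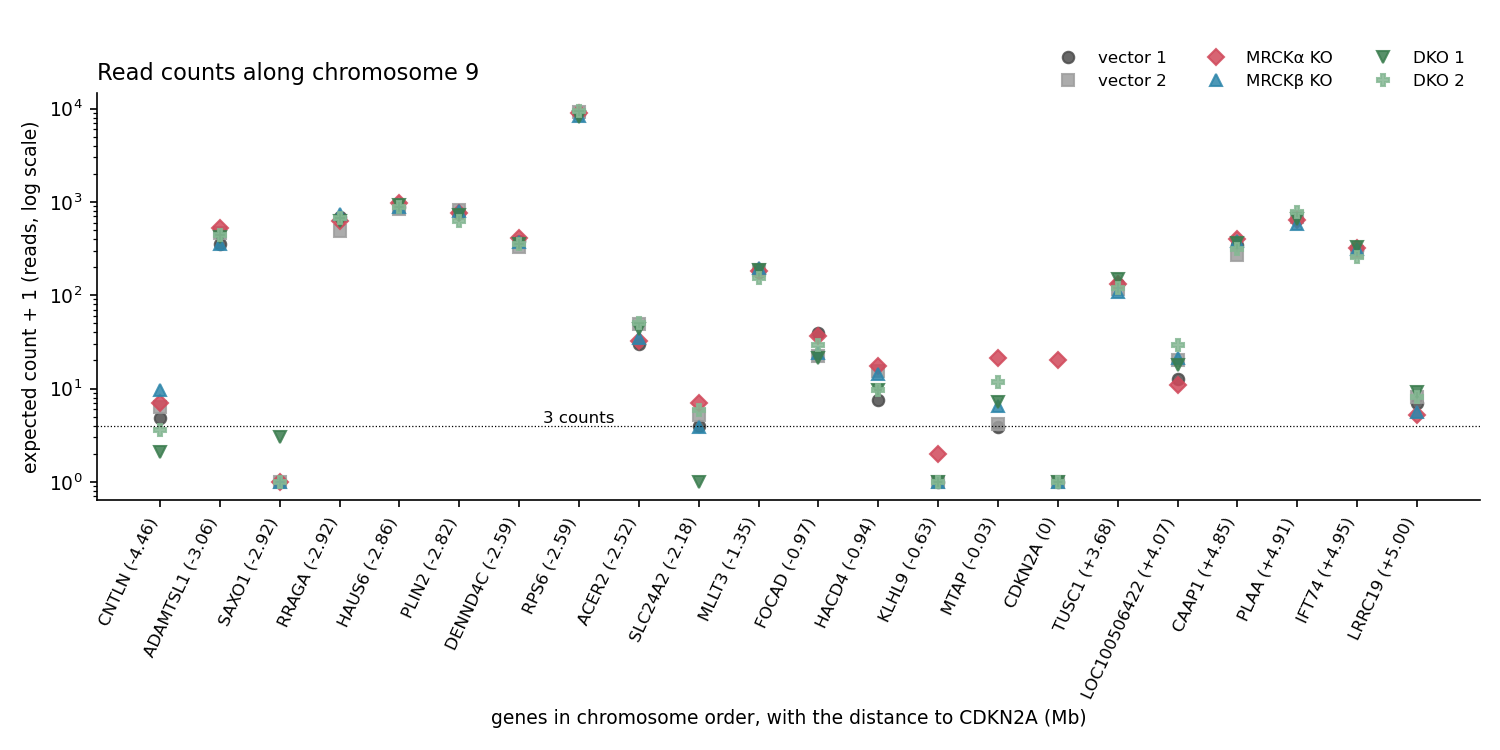
Expected count + 1 (reads, log scale) in each of the 6 libraries for the 22 genes with values within 5 Mb of CDKN2A, in chromosome order with the distance in Mb under each gene and a dotted line at 3 counts. Counts of MLLT3 lie at 151.16 to 196.23 and those of TUSC1 at 107 to 149, with FOCAD, HACD4, KLHL9, MTAP and CDKN2A lower between them. MRCKα KO is the highest library for MTAP and CDKN2A, for KLHL9 by 1 read, and for HACD4 by a small margin (16.39 against 14.33 in vector 2).

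None of the neighbours was called in DKO. Of the 22 genes, 14 passed the filter, and edgeR's quasi-likelihood test called 0 of them at an adjusted p under 0.05, as 0 of all 13123 genes tested (0%). At an unadjusted p under 0.05 the count was again 0 of 14, where 2.39% of all genes passed. The log2 fold changes of the 14 had a median of 0.06 against 0.00 over all genes, with 8 higher and 6 lower, from -0.31 for FOCAD (SE 0.47) to 0.51 for LOC100506422 (SE 0.53). The groups hold 2 libraries each, which nothing ties to separate animals or donors, so p-values measure only the spread between these cultures.

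MRCKα KO, the library with the most reads of CDKN2A and MTAP, was also the main source of reads for a few other genes. Genes with at least the MTAP count in 1 library and at most 3 counts in each other library numbered 2 for MRCKα KO (IRS4 and IGF2BP1), 1 for MRCKβ KO and 0 for each of the other 4. With the CDKN2A count as the limit, chosen after its values were seen, the numbers were 4 for MRCKα KO, with CDKN2A itself and NEFM added, 1 for MRCKβ KO and 0 for the other 4. With a limit of 10 counts they were 10 for vector 1 and 1 for vector 2, 10 and 4 for the single knockouts MRCKα KO and MRCKβ KO, and 3 and 6 for DKO 1 and DKO 2. At this lower limit vector 1 had as many such genes as MRCKα KO, while genes with as many reads as CDKN2A or MTAP were found in MRCKα KO and MRCKβ KO.

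IRS4, an insulin receptor substrate gene, was at 70 counts in MRCKα KO, 2 in DKO 1 and 0 in the other 4. IGF2BP1, an RNA-binding protein gene of fetal and tumor cells, was at 25 in MRCKα KO, with 1 count for MRCKβ KO and 0 for the other 4. NEFM, which encodes the medium neurofilament chain, was at 19 in MRCKα KO, 2 in DKO 1 and 0 in the other 4. LIN28B, which encodes a repressor of let-7 microRNAs, was at 10 in MRCKα KO, 1 in DKO 1 and 0 in the other 4.

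NEFM and LIN28B belong to a list of 9 genes known from HEK293T cells, the line in which the virus was packaged, and 7 of them had values. Among the 7, some were near 0 in most libraries and others were read in all. ZIC5 gave 1 count in MRCKα KO and 1 in vector 1, and SOX11 gave 1 count, in MRCKα KO. The other 3 were read in all libraries, where MRCKα KO had 389 counts of ZIC2, the joint lowest of 389 to 700, 6.94 of SALL4 within 3.68 to 15.79, and 685 of CKB within 346 to 784. At such counts of ZIC2 and CKB, a few added reads would not show. The whole list summed to 62.5 FPKM in MRCKα KO, within the 44.5 to 72.3 FPKM of the others. CKB (48.91 FPKM) and ZIC2 (12.5 FPKM) made up most of that sum, so it cannot show a small change in the sparse genes. NEFM, LIN28B, ZIC5 and SOX11 were picked for at most 3 counts in each library other than MRCKα KO. Their sum was 31 counts in MRCKα KO, 3 in DKO 1, 1 in vector 1 and 0 in the remaining libraries. Under this choice only MRCKα KO could be high, and no like choice was made for another library. The sums therefore cannot show that MRCKα KO stands apart. By their own counts, NEFM and LIN28B, 2 of the 7, were highest in the same library as CDKN2A and MTAP. IRS4 and IGF2BP1 are not on this list, so that share does not cover them, and whether HEK293T cells express them was not examined. The part of HEK293T cells in the CDKN2A and MTAP reads was not tested. Without MRCKα KO, CDKN2A had no read, and MTAP was at 2.89 to 10.72 counts.

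**Figure D3:**
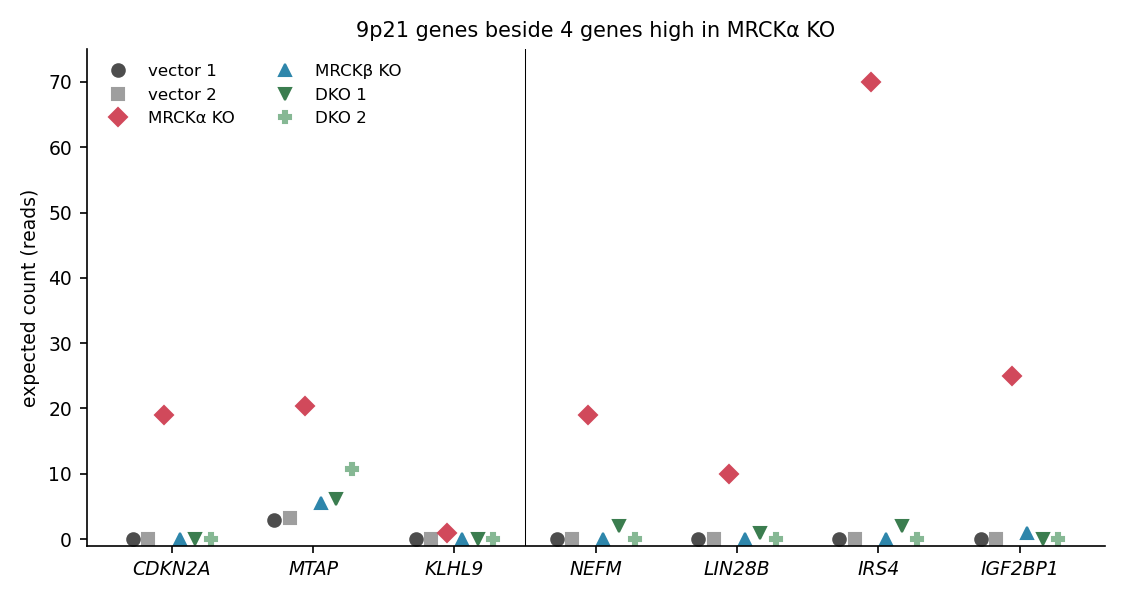
Expected counts (reads, linear axis) of CDKN2A, MTAP and KLHL9, left of the line, and of NEFM, LIN28B, IRS4 and IGF2BP1, right of it, with 1 point for each of the 6 libraries. MRCKα KO holds the highest point for all 7 genes, from 1 for KLHL9 to 70 for IRS4, and only MTAP has more than 3 counts in another library. The genes right of the line were picked for reads in MRCKα KO and at most 3 counts elsewhere, which fixed their peak.

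The partners of the 9p21 proteins were read in lists of the pathways in which these proteins act, and none changed in DKO past the threshold. Of 83 listed genes, 80 had values and 75 were tested, and edgeR's quasi-likelihood test called 0. An unadjusted p under 0.05 was reached by 5 (4 higher, 1 lower), which is to be read against the 2.39% over all genes, and all 5 had an adjusted p of 1. The median log2 fold change of the 75 was 0.03.

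The machinery that p16INK4A and p15INK4B restrain was expressed. In the list of CDKs, their inhibitors, cyclins, RB and E2F factors, CDK4 was at 56.72 to 73.21 FPKM, CDK6 at 9.58 to 12.95, RB1 at 39.49 to 47.08, and the most abundant were the D-type cyclin gene CCND1 with a mean of 206 FPKM and TFDP1, the E2F partner, with 134. CDKN2C and CDKN2D, the INK4 genes outside 9p21, were at 34.22 to 40.90 and 23.16 to 39.71 FPKM in the 6 libraries. CDKN2C and CDKN2D were thus read in every library. The 1.71 FPKM of CDKN2A in MRCKα KO is a value of the whole gene, which does not tell p16INK4A from p14ARF transcripts. Of the 22 genes of this list 21 were tested, with 10 higher, 11 lower and a median of 0.00. The largest differences were those of E2F2, 0.57 (SE 0.31), and of CCNE2, an E-type cyclin gene, -0.31 (SE 0.13).

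The list of MDM2, which p14ARF restrains, and of genes of the stress response had 13 genes tested, 8 higher and 5 lower, and a median of 0.03. MDM2 was at 12.06 to 13.91 FPKM, and the most abundant genes of the list were BAX, a pro-apoptotic gene, with a mean of 61.6 FPKM and CCNG1, the cyclin G1 gene, with 49.2. GADD45A, a growth arrest and DNA damage gene, had 295 and 447 counts in vector, 571 and 750 in DKO, 519 for MRCKα KO and 521 for MRCKβ KO. All knockout libraries were above both vector libraries, and the log2 fold change in DKO was 0.81 (SE 0.24). GADD45A was named for its difference in DKO, so the place of the DKO libraries is no separate support. SESN2, a stress-induced inhibitor of mTORC1, had 130 and 144 counts in vector, 216 and 185 in DKO, 124 for MRCKα KO and 205 for MRCKβ KO, with 0.53 (SE 0.20) in DKO. The unadjusted p-values from edgeR were 0.0151 and 0.0361.

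The enzymes around MTAP in methionine salvage and polyamine synthesis were read in every library. Downstream of MTAP, MRI1 was at 11.35 to 14.31 FPKM, APIP at 27.71 to 36.43, ENOPH1 at 32.44 to 42.38 and ADI1 at 58.84 to 74.66, each above the 0.05 to 0.40 FPKM of MTAP in all libraries. PRMT5, the arginine methyltransferase that methylthioadenosine inhibits, was at 73.13 to 81.70 FPKM, and MAT2A, which makes S-adenosylmethionine, at 79.81 to 106.34. The most abundant were OAZ1, the ornithine decarboxylase antizyme, with a mean of 234 FPKM, and SMS, spermine synthase, with 200.

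Of the 20 genes of this list, 10 were higher and 10 lower in DKO, with a median of -0.01. SAT1, which acetylates spermidine and spermine, had 678 and 564 counts in vector, 786 and 980 in DKO, 699 for MRCKα KO and 1022 for MRCKβ KO. SMOX, spermine oxidase, had 159 and 116 counts in vector, 191 and 213 in DKO, 174 for MRCKα KO and 162 for MRCKβ KO. APIP, the dehydratase of the salvage route, had 492 and 469 counts in vector, 398 and 369 in DKO, 409 for MRCKα KO and 420 for MRCKβ KO. For all 3 genes every knockout library lay beyond both vector libraries, on the high side for SAT1 and SMOX and on the low side for APIP. The 3 genes were named with their DKO values known, so the place of the DKO libraries is no separate support. The single knockouts were set against the same vector libraries, by small margins in places, as for SMOX (162 in MRCKβ KO against 159 in vector 1). The log2 fold changes in DKO were 0.49 (SE 0.16), 0.54 (SE 0.22) and -0.34 (SE 0.13), and none passed the threshold after adjustment over all genes.

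For the elongation complex in which MLLT3 acts, 14 genes were tested, 11 higher and 3 lower, with a median of 0.11. MLLT1, the paralog of MLLT3, was at 29.86 to 37.54 FPKM with 0.25 (SE 0.11) in DKO, and ELL2, an elongation factor gene, had the highest mean at 39.1 FPKM. AFF3, a scaffold gene, and ELL had the largest log2 fold changes, 0.40 (SE 0.21) and 0.35 (SE 0.17), neither past the threshold. Among the partners of KLHL9, 7 of 8 genes were tested with a median of 0.02. CUL3 itself was at 25.58 to 28.40 FPKM and AURKB at 64.90 to 85.39, and NEDD8, the modifier of cullins, had the highest mean at 134 FPKM. KEAP1 and KLHL21, adaptors of CUL3 like KLHL9, had the largest log2 fold changes, 0.40 (SE 0.17) and 0.34 (SE 0.19). Of the 6 listed relatives of DMRTA1, a DM-domain transcription factor gene, 3 had values, each 1 count in 1 library (DMRTA2 in vector 1, DMRT2 and DMRTC2 in DKO 1), and none was tested.

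**Figure D4:**
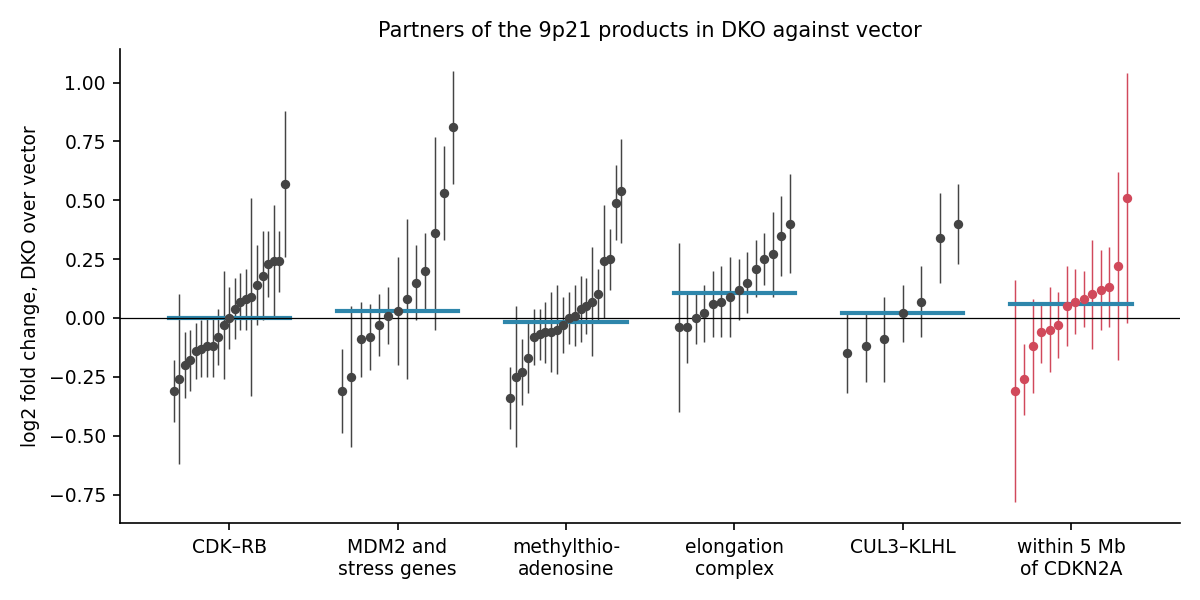
Log2 fold change of DKO over vector from edgeR (2 libraries each) for the tested genes of 5 pathway lists and for the 14 tested genes within 5 Mb of CDKN2A, sorted within each list, with lines for 1 SE either way and a blue bar at the list's median. The medians lie between -0.01 and 0.11, and the highest single value is 0.81 for GADD45A.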

How the data were processed

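Total RNA from MDA-MB-231 cultures was read by BGI as single-end reads of 50 bases on the BGISEQ-500 in 6 libraries (2 vector, 1 MRCKα KO, 1 MRCKβ KO, 2 DKO), grouped by the labels. The submitters' processing notes name HISAT, Bowtie2 and RSEM and the build GRCh38.p11, without roles. The authors deposited expected counts per gene, which are not normalized (61.0% to 61.8% whole), and FPKM values rounded to 2 decimals, with a gene length column. A gene absent from a library's list was set to 0.

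Expected counts were rounded and tested for DKO against vector with edgeR 4.0.16 (filterByExpr, TMM, quasi-likelihood test, Benjamini-Hochberg over 13123 genes, threshold 0.05) in R 4.3.3, checked on simulated data. Alternatives used DESeq2 1.42.0, limma 3.58.1, other scaling and filters, and left out each library. Single knockouts have 1 library, so no test was made, and Poisson intervals, exact conditional intervals of count ratios (counting error only) and the study's 2-fold FPKM rule, without its exclusion of poorly expressed genes, describe them. Gene positions came from GENCODE 29 on GRCh38 by Entrez ID, and promoters from RefSeq on GRCh38.p14, where all 6 genes matched by symbol.

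The members and lists were chosen with earlier results of these data known. Named were the members, neighbours within 5 Mb with values, per pathway list the 2 genes with the largest log2 fold change, the 2 with the highest mean FPKM and close paralogs, the 3 genes most like MLLT3, and the genes read in 1 library at the MTAP count. APIP, NEFM, LIN28B and the marker genes, the core genes CDK4, CDK6, RB1, MDM2, CUL3, MRI1, ENOPH1, ADI1, PRMT5 and MAT2A, and the DMRT relatives were named after their values were seen. No protein sequences were used here, and 1 gene of the stress response list is not reported here and was left out of its counts. No fibroblast list result is drawn on, and its 6 genes summed to 3.75 to 11.2 FPKM.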

Additional observations from a re-analysis of the deposited data

How the results depend on the processing

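In every alternative that kept all vector and DKO libraries, the fit called 0 members, 0 neighbours and 0 pathway genes for DKO against vector. These included DESeq2, which called 4 genes over the whole table, and limma. They tested only 1 to 3 members and called 0 to 5 of all genes, so 0 calls is also the rule over all genes. Leaving out 1 library at a time moved the log2 fold change of MLLT3 from -0.28 to 0.03, the latter, without DKO replicate 2, the only change of sign, and the run of genes at 3 counts or fewer around CDKN2A from 0 to 1, the latter without MRCKα KO. Pathway genes with an unadjusted p under 0.05 numbered 13 without vector replicate 1, 2 without DKO replicate 1 and by DESeq2, and 0 without DKO replicate 2, against 5. With a pseudocount of 1 the MTAP ratio of FPKM in MRCKα KO was 1.33 and with 0.1 it was 3.23, against 6.75 on counts, and without a vector replicate it was 6.65 to 6.85. The 2-fold rule in MRCKα KO called 2 members with a pseudocount of 0.1 (CDKN2A with 4.18 and MTAP with 1.69), and 1 with a pseudocount of 1 (CDKN2A with 1.44, where MTAP had 0.41). In MRCKβ KO it called 0 to 1 members when a vector replicate was left out, the 1 being MTAP at 1.00 without vector replicate 2. In DKO, where the rule was applied here only after seeing the data, it called 0 members with either pseudocount.

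Vector and DKO share replicate numbers 1 and 2, which no label ties to a batch, and the deviations of the libraries numbered 1 correlated at 0.302. With the replicate number as a block, MLLT3 was at -0.12, 0 members, 0 neighbours and 0 pathway genes were called, pathway genes with an unadjusted p under 0.05 numbered 14, and calls over all genes went from 0 to 5. Depth limits the statements on CDKN2A, KLHL9 and MTAP, which rest on 0 to about 20 reads per library, and no difference involving a single knockout has a replicate check.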
